A study of Drosophila melanogaster with 2 samples.

Results

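The vacuolar ATPase (V-ATPase) subunit genes are the 33 protein-coding genes of Drosophila melanogaster whose symbols start with Vha in the Ensembl annotation, of 13945 protein-coding genes in all on 6 chromosome arms. Of them, 13 encode 8 subunits of the V1 sector, 18 encode 5 subunits of the V0 sector and 2 encode accessory proteins. Ovo binding at their promoters was measured by chromatin immunoprecipitation followed by sequencing (ChIP-seq) in whole adult females of the transgenic strain ovo-GFP, which carry Ovo with GFP at its C terminus. Their age is labelled unknown. The chromatin was sonicated into fragments of 200 to 800 bp and precipitated, per the sample descriptions, with an antibody against GFP, while the antibody field of the labels names ovo. The 2 biological replicates, numbered 1 and 4, form 1 group, so no conditions were compared. All tissues of the fly are mixed in each library, and no untagged strain was analysed here.

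The V-ATPase is a rotary pump of membranes. Its V1 sector faces the cytoplasm and hydrolyses ATP on subunits A and B, and the central stalk with subunits D and F passes the rotation to the V0 sector. V0 lies in the membrane, where a ring of c and c'' subunits turns against subunit a and carries protons across. The pump acidifies lysosomes and endosomes, and in insects it also energises the plasma membrane of transporting epithelia such as the Malpighian tubule. Ovo belongs to the zinc-finger transcription factors, is needed in the germline of females and recognises sites with the core TAACNGT.

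A promoter summit is a peak's point of highest signal within 500 bp of an annotated transcription start site (TSS). In the thresholded peak list, whose 4477 peaks the authors kept by comparing the replicates, 9 of 33 Vha genes had such a summit (27.3%, exact binomial 95% interval 13.3 to 45.5%), against 23.5% of all protein-coding genes. The interval covers counting error only and includes the share of all genes. The 9 genes were Vha68-1, Vha68-2, Vha55, Vha44, Vha36-1 and Vha13 of V1 and Vha100-2, Vha16-1 and VhaM9.7-b of V0. The replicates alone gave similar counts. Among the best 4477 peaks of each, 11 Vha genes (33.3%) had a promoter summit in replicate 4, against 23.4% of all genes, and 9 (27.3%) in replicate 1, against 22.7% of all genes.

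The bases at the point of highest signal are shown for 6 of the 9 genes, the summits of Vha44, Vha36-1 and Vha16-1 being left out. They include the subunit A paralogs, the summits of Vha55 and Vha100-2 with their high scores, and the lowest score of the 9, at Vha68-1. Each window is 61 bp, on the strand of the named gene, 5′ to 3′, from the RefSeq Release 6 (dm6) genome. The single capital in the middle is the summit base, and the run of 7 capitals is a TAACNGT core site on either strand. Of these 6 windows, that of Vha100-2 alone holds such a run, written ACAGTTA on the gene's strand, 20 bp from the summit.
Vha100-2, chr3R:18396951-18397011, minus strand: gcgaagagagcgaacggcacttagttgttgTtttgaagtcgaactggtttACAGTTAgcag
Vha55, chr3R:12627820-12627880, minus strand: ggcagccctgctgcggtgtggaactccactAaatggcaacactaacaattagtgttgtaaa
Vha13, chr3R:19644114-19644174, minus strand: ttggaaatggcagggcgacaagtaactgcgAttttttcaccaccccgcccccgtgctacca
Vha68-2, chr2L:12974212-12974272, plus strand: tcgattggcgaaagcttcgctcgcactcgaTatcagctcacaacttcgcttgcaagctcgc
Vha68-1, chr2L:13004316-13004376, minus strand: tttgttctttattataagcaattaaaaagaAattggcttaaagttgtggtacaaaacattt
VhaM9.7-b, chr3L:21539465-21539525, plus strand: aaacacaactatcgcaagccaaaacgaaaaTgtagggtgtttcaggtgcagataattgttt

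Base composition differed widely among these windows. Within 50 bp of the summit the GC content was 21.8% at Vha68-1 and 57.4% at Vha68-2, although both genes encode subunit A. The median was 47.5% for the 9 Vha summits, against 39.6% for the 3283 genes with a promoter summit.

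The 9 genes had mostly high scores. The score is the authors' enrichment of the precipitate over a control for each peak, and it is used here only to rank peaks within a list, with rank 1 the highest. The median score of the best promoter summit was 173 for the 9 Vha genes, against 128 for the 3283 genes with one, and 8 of the 9 lay at or above the median of all genes. The median rank was 1065, against 1896 for all such genes. Among the 1000 peaks of highest score, 4 Vha genes had a promoter summit (12.1%: Vha55, Vha13, Vha100-2 and Vha16-1), against 6.19% of all genes. Among the best 10000 peaks of the pooled list, which was called on the reads of both replicates and holds 30000 peaks and background regions, 18 had one (54.5%), against 37.7% of all genes. In the whole pooled list the count was 23 (69.7%), against 54.8% of all genes.

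**Figure D1:**
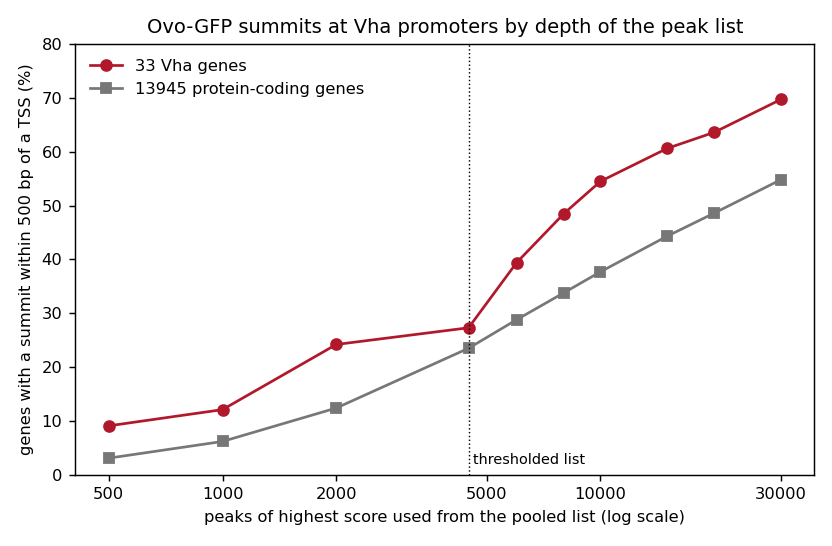
Share of genes with a promoter summit (percent, vertical axis) against the number of best pooled peaks used (horizontal axis, log scale), for the 33 Vha genes and for all 13945 protein-coding genes. The share of Vha genes lies above that of all genes at each number of peaks drawn, with 24.2% against 12.4% at 2000 peaks and 27.3% against 23.5% at the thresholded 4477. Each point includes the peaks of the points before it, so the points are not independent.

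A thresholded promoter summit was found for 6 of 13 V1 genes (46.2%), which cover 5 of the 8 subunits, namely A, B, C, D and G. The V1 stalk subunits E and F and the regulatory subunit H had none. In V0 it was found for 3 of 18 genes (16.7%), covering subunits a, c and e. These shares stand beside 23.5% of all genes. Neither VhaAC45 nor VhaAC45RP, the accessory genes, had one. The subunits encoded by a single gene had it for 3 of 5 genes, and those encoded by several paralogs for 6 of 26 (23.1%), a share near that of all genes. Across the whole pooled list, each of the 8 V1 and 5 V0 subunits had at least 1 gene with a promoter summit, in a list where 54.8% of all genes have one. The difference between the sectors is a description of few genes and was not tested.

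**Figure D2:**
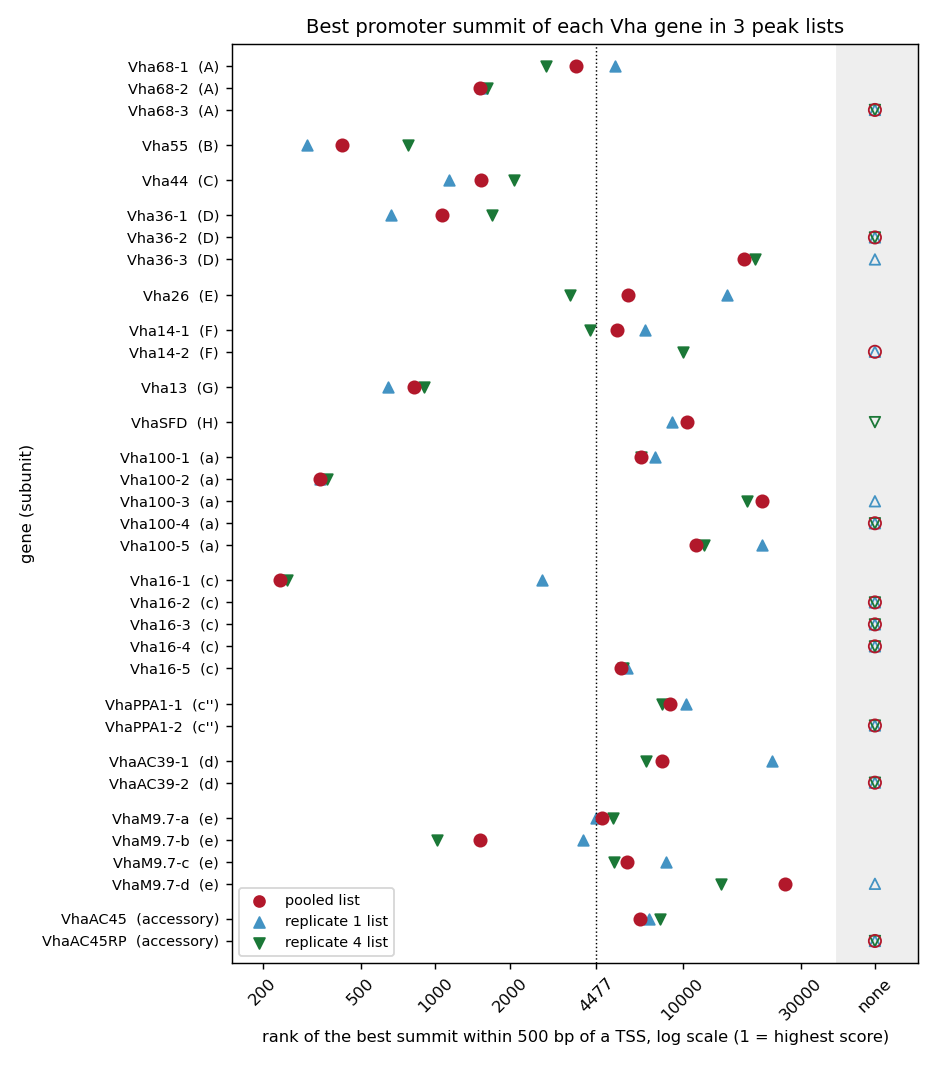
Rank of the best summit within 500 bp of a TSS (horizontal axis, log scale, 1 is the highest score) for each of the 33 Vha genes, grouped by subunit, in the pooled list and in the lists of replicates 1 and 4. The dotted line marks rank 4477, the end of the thresholded list, and open symbols at the right mark genes with no summit in that list; in each subunit with paralogs the same gene stands left of the others in all 3 lists.

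Vha55 encodes the catalytic-head subunit B as the only gene of that subunit, and it carried the strongest V1 peak. The peak lay at 3R:12627630 to 12628069 with its summit 21 bp upstream of the TSS, a score of 253 and rank 418. In the separate lists the summit had a score of 128 and rank 303 in replicate 1 and a score of 115 and rank 775 in replicate 4. Both replicates thus placed it among their best 1000 peaks. The gene's promoter also holds a core site 226 bp upstream of the TSS, shown with its flanks.
Vha55 distal core site, chr3R:12628038-12628066, minus strand, core in capitals: gctgtgtgagtTAACAGTaggggtggtac
The thresholded summit does not lie there. A separate pooled summit sits at the core, with a score of 23.7 and rank 25188, and it was found in replicate 1 at rank 18659 and not in replicate 4. This summit and the thresholded one also lay within 500 bp of the start of the neighbouring gene Snx3. Which gene the core site belongs to cannot be told here.

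Subunit A, the ATP-hydrolysing subunit, has 3 paralogs on arm 2L, and 2 of them had a thresholded promoter summit. Vha68-2 had its summit at 12974242, 80 bp upstream of the TSS and clear of any other coding promoter, with a score of 145 and rank 1521. It ranked 1545 in replicate 1 (score 64.4) and 1611 in replicate 4 (score 80.8), almost the same place in both. Vha68-1 had its summit at 13004346, 239 bp upstream of the TSS, with a score of 85.2 and rank 3721. It ranked 5313 in replicate 1 (score 30.7) and 2799 in replicate 4 (score 58.4), so replicate 1 alone would leave it outside the best 4477. Vha68-3, which starts 178 bp after the end of Vha68-2, had no promoter summit in any of the lists. Vha68-2 scored above Vha68-1 in the pooled list and in each replicate.

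Subunit C ties V1 to the peripheral stalks, and subunit D is part of the central shaft. Vha44, the only subunit C gene, had a peak at 2R:16336473 to 16336912, with its summit 56 bp upstream of the TSS, a score of 145 and rank 1530. It ranked 1135 in replicate 1 (score 75.9) and 2074 in replicate 4 (score 69.3). Vha36-1, a gene of a single exon for subunit D, had a peak at 2R:15541187 to 15541626 with the summit 28 bp upstream, a score of 173 and rank 1065. It ranked 663 in replicate 1 (score 94) and 1702 in replicate 4 (score 77.5). Vha44, Vha36-1 and Vha55 all ranked higher in replicate 1. The other subunit D paralogs were far below: Vha36-3 reached a score of 28.7 (rank 17714) in the pooled list and had no promoter summit in replicate 1, and Vha36-2 had none in any list. A second pooled summit of Vha36-3, 478 bp upstream of the TSS, had a score of 27.8 (rank 18708). Its match in replicate 1, at rank 9753, fell just outside the 500 bp window. That second pooled summit also lay within 500 bp of the start of the gene AANATL7.

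Vha13 encodes subunit G of the peripheral stalk and had 2 thresholded summits. The stronger one lay 242 bp downstream of the TSS inside an intron, in a peak at 3R:19643924 to 19644363 with a score of 197 and rank 816. It ranked 645 in replicate 1 (score 95) and 896 in replicate 4 (score 107). The weaker one lay 8 bp downstream of the TSS in the 5′ UTR, with a score of 91.8 and rank 3315, and it ranked 2804 in replicate 1 and 4296 in replicate 4. The order of the 2 summits was the same in both replicates. Both peaks lay clear of other coding promoters.

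Subunit a of V0 forms the proton path against the turning ring, and its paralogs direct the pump to different membranes. Among its 5 paralogs only Vha100-2 had a thresholded promoter summit, in a peak at 3R:18396761 to 18397200 with a score of 272 and rank 341. The summit ranked 342 in replicate 1 (score 123) and 363 in replicate 4 (score 153), a ratio of ranks of 1.06. It lay 53 bp upstream of the inner TSS at 18396928, within an intron of the longer transcript. A second thresholded summit followed 274 bp upstream of the same TSS, with a score of 121 and rank 2112. The distal TSS at 18399169 had a summit 188 bp upstream that fell just outside the thresholded list, with a score of 72.4 and pooled rank 4690. It ranked 5489 in replicate 1 and 3951 in replicate 4, and it also lay within 500 bp of a start of the neighbouring gene Vti1b. A core site lies 40 bp from that summit, shown with its flanks.
Vha100-2 distal promoter, chr3R:18399300-18399328, minus strand, core in capitals: ctgatttgcgaTAACGGTcaccgatcata
Thus both annotated starts of Vha100-2 had a summit with a core site nearby, the distal summit being below the threshold. The inner summit, too, lay within 500 bp of a start of Vti1b, 14 bp from it against 53 bp for Vha100-2. Vha100-1, the paralog known for its role in synaptic vesicles of neurons, reached a score of 55 (rank 6808), Vha100-5 a score of 37.8 (rank 11311) and Vha100-3 a score of 26.2 (rank 20966). Vha100-4, which starts 517 bp beyond the end of Vha100-2, had no promoter summit in any list.

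Subunit c forms the rotating ring, and Vha16-1 had the highest score of all Vha promoters. Its peak lay at 2R:6631665 to 6632104 with a score of 315 and rank 235, and the summit ranked 362 in replicate 1 (score 121) and 252 in replicate 4 (score 175). The summit sits in an intron 499 bp downstream of the inner TSS, at the very edge of the window. In replicate 1 the matching summit was 8 bp further on and outside 500 bp. The gene also had a thresholded summit 153 bp upstream of its first TSS, with a score of 101 and rank 2857, which ranked 3285 in replicate 4 and had no counterpart within 100 bp in replicate 1. Replicate 1 had a summit of its own 45 bp upstream of that TSS, at rank 2698 (score 47.5). Vha16-1 was thus called in each list, through another summit in replicate 1 than in replicate 4.

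Vha16-1 was bound over its body as well. The gene and 1000 bp on either side held 6 thresholded summits, of which 5 lay in introns. Counted from the first TSS, the intronic ones lay at 1205 bp (score 315), 2243 bp (76.5), 2443 bp (247), 3151 bp (101) and 4707 bp (86.3). All 5 fall in the intron between the coding exon that ends at 1063 bp and the one that starts at 5169 bp. The summit at 2243 bp ranked 5712 in replicate 1 and had no match in replicate 4. Its peak overlaps that of the summit at 2443 bp. The summit at 2443 bp had rank 460 and ranked 358 in replicate 1 and 555 in replicate 4, so the gene had 2 summits among the best 1000 peaks. Of its paralogs, Vha16-5 reached a score of 63.5 (rank 5648), and Vha16-2, Vha16-3 and Vha16-4 had no promoter summit in any list.

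**Figure D3:**
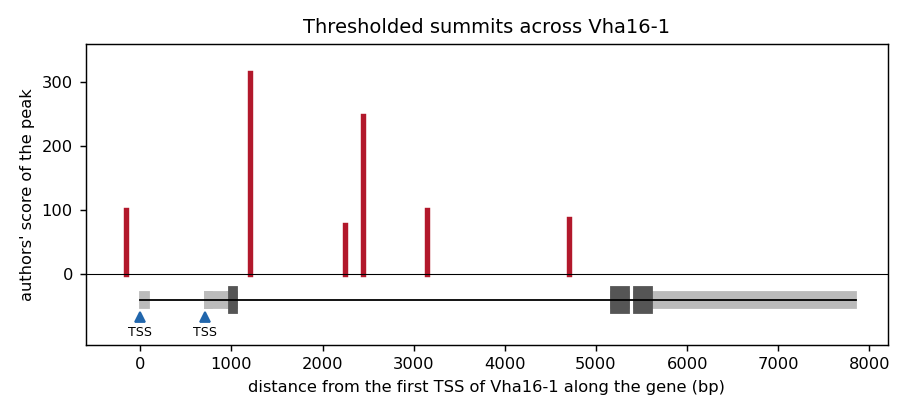
Map of Vha16-1 drawn to scale in bp from its first TSS along the direction of transcription (horizontal axis), with exons and coding parts as boxes and the 6 thresholded summits as lines whose height is the authors' score (vertical axis). The scores of 315 and 247 stand at 1205 and 2443 bp, inside the long intron, and the summit before the first TSS has a score of 101.

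Subunit e is a small membrane protein of V0 with 4 genes, and VhaM9.7-b had a peak at 3L:21539275 to 21539714 with its summit 367 bp upstream of the TSS, a score of 145 and rank 1514. It ranked 3965 in replicate 1 (score 37.3) and 1013 in replicate 4 (score 101). That 3.91-fold difference in rank was the widest of the 9 Vha genes, and 5.52% of 3044 genes with a summit in both replicates had a wider one. The other paralogs had pooled summits below the threshold. VhaM9.7-a had a score of 72.2 (rank 4719), VhaM9.7-c a score of 61.3 (rank 5938) with the summit exactly at the TSS, and VhaM9.7-d a score of 23.3 (rank 26059).

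The paralog with the highest score was the same in the pooled list and in each replicate for all 8 subunits with several genes. These were Vha68-2 for A, Vha36-1 for D, Vha14-1 for F, Vha100-2 for a, Vha16-1 for c, VhaPPA1-1 for c'', VhaAC39-1 for d and VhaM9.7-b for e. The leading summits of D, F, a and e also lay within 500 bp of the start of another coding gene. For c, c'' and d the best promoter summit of the leading gene in replicate 1 was not the pooled one. That of VhaAC39-1 ranked 23073 in replicate 1, 286 bp downstream of the TSS, against 104 bp downstream in the pooled list. For F, c'' and d the leading gene itself was below the threshold. In the pooled list the other gene of each of these 3 pairs had no promoter summit at all, and in replicate 4 Vha14-2 had 1 at rank 10066, against rank 4215 for Vha14-1. Some paralogs lie close together: Vha68-2 and Vha68-3 (178 bp apart), Vha100-2 and Vha100-4 (517 bp), and VhaPPA1-1 and VhaPPA1-2 (2052 bp). Each of these pairs had a pooled promoter summit in the first gene only. A summit at the promoter of RpS5b lies between VhaPPA1-1 and VhaPPA1-2. Vha16-2 and Vha16-3, 985 bp apart, both had none. Among the more distant pairs, Vha68-1 and Vha68-2 and VhaM9.7-a and VhaM9.7-c had a pooled promoter summit in both genes. Vha68-1 and Vha68-3, 19476 bp apart, had it in the first gene only.

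**Figure D4:**
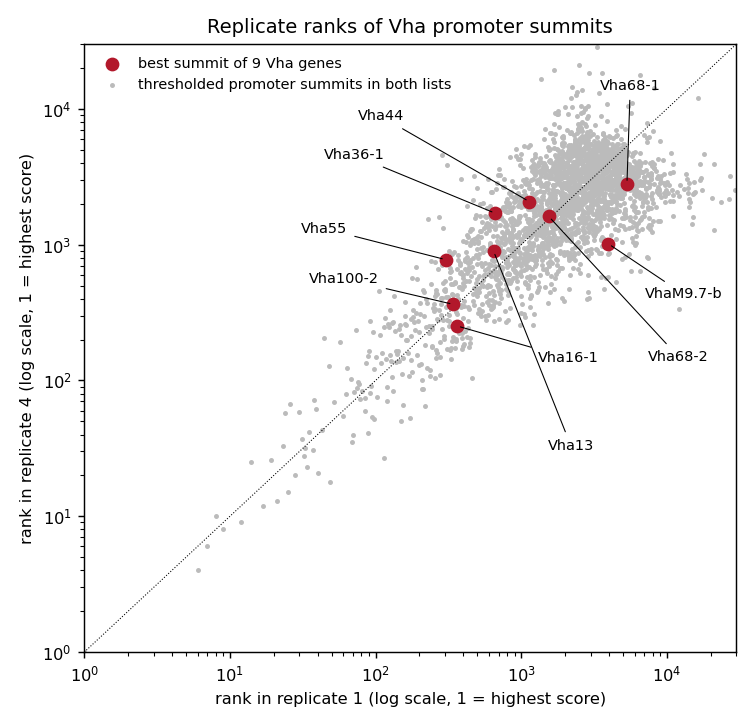
Rank in replicate 4 (vertical axis) against rank in replicate 1 (horizontal axis), both on log scales with 1 the highest score, for the best summit of the 9 Vha genes and for the 2622 of 2851 thresholded promoter summits found in both lists. Vha68-2 and Vha100-2 lie next to the diagonal of equal ranks, Vha55, Vha36-1 and Vha44 rank higher in replicate 1, and VhaM9.7-b ranks higher in replicate 4.

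Presence in both replicates was the measure of error for a peak. With summits matched within 100 bp, 8 of the 9 Vha genes (88.9%) had their best summit among the best 4477 of both replicates, against 72.7% of the 3283 genes. The exception was Vha68-1. The thresholded list was itself made by comparing these replicates, so the share is no independent check. It was not adjusted for rank in the thresholded list, where the median was 1065 for the 9 Vha genes and 1896 for the 3283 genes. The median ratio of the replicate ranks was 1.83 for the 9 Vha genes, against 1.54 for 3044 genes. Single replicates also called Vha genes that the thresholded list does not hold. Vha26, the subunit E gene, ranked 3498 in replicate 4 and 15185 in replicate 1, and Vha14-1 ranked 4215 in replicate 4 and 7064 in replicate 1. VhaM9.7-a had different summits in the replicates, more than 100 bp apart. That of replicate 1 ranked 4452 at -41 bp from the TSS (negative is upstream), and that of replicate 4 ranked 5246 at -190 bp.

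Most of the called Vha promoters were shared with a gene transcribed in the opposite direction. A summit counts for both genes when it lies within 500 bp of both starts, and this held for 6 of the 9 Vha genes (66.7%), against 55.8% of all genes with a summit. The neighbour's start was 67 bp from that of Vha100-2 (Vti1b, a SNARE of endosomal fusion), 72 bp from Vha36-1 (CG8187), 123 bp from Vha44 (Hmgs, hydroxymethylglutaryl-CoA synthase) and 202 bp from Vha55 (Snx3, a sorting nexin). It was 373 bp from Vha68-1 (mTor, the kinase that senses nutrients at the lysosome) and 415 bp from VhaM9.7-b (COX8, a cytochrome c oxidase subunit). The summit lay nearer to the Vha start for Vha55, Vha44 and Vha36-1, and nearer to the neighbour's start for Vha68-1, Vha100-2 and VhaM9.7-b. The distance was 367 bp for VhaM9.7-b and 48 bp for COX8. Which of the 2 genes a shared summit belongs to cannot be told from these peaks.

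**Figure D5:**
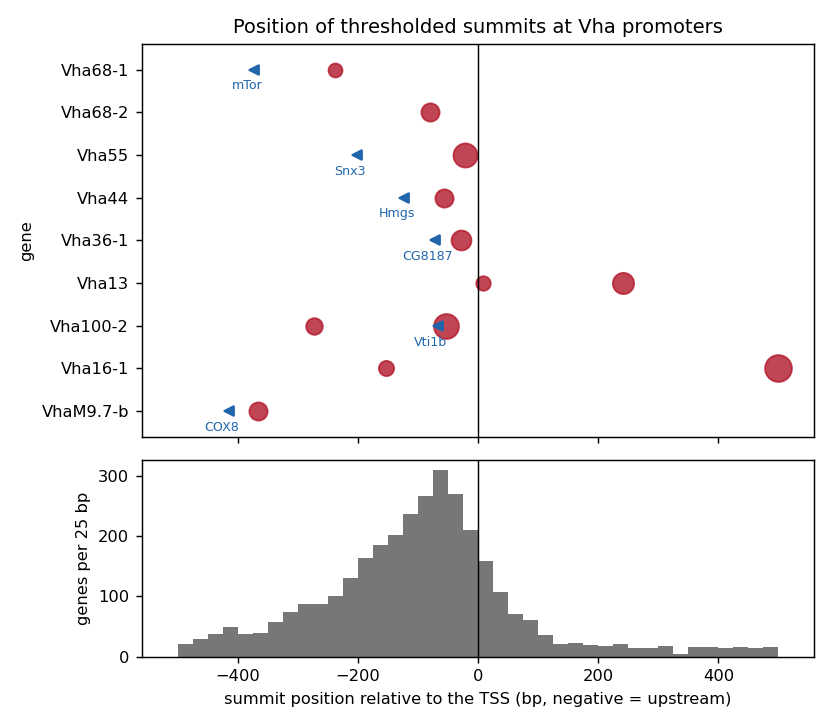
Upper panel: position of each thresholded summit relative to the TSS of the Vha gene (horizontal axis, bp, negative is upstream) for the 9 genes, with dot area growing with the score and blue arrowheads at the start of the divergent neighbour. Lower panel: the same distance for the best summit of all 3283 genes in bins of 25 bp; 7 of the 9 best Vha summits lie upstream, and Vha13 and Vha16-1 have theirs at 242 and 499 bp downstream.

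The presence of a close neighbour went with the call in the Vha genes as in all genes. Of 13 Vha genes with another coding TSS within 500 bp, 6 had a thresholded summit (46.2%), against 43.7% of all 4309 such genes. Of the 20 without one, 3 had a summit (15%: Vha68-2, Vha13 and Vha16-1), against 14.5% of 9636 genes. Within both classes the Vha share was close to that of all genes. Genes with more than 1 annotated transcript also differed: 8 of 19 such Vha genes had a summit (42.1%), against 32.9% of all such genes, and 1 of 14 with a single transcript (7.14%, Vha36-1), against 14% of all such genes. With the gene body and 500 bp upstream as the window, the count stayed at 9 (27.3%), against 26.3% of all genes.

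Of the 24 Vha genes without a thresholded promoter summit, 14 had one in the pooled list (58.3%), against 40.9% of all 10662 genes without a thresholded one. Taking the best such summit of each gene, a core site lay within 50 bp of 1 of the 14 (7.14%). For all pooled promoter summits below the threshold, best of their gene or not, the share was 4.88% of 6600. Besides the paralogs above, the 14 genes included Vha14-1, the subunit F gene of the central stalk. It had a score of 65.5 (rank 5410) and that core site 9 bp from the summit. Vha26 had a score of 60.8 (rank 6008), VhaAC45 a score of 55.5 (rank 6717), VhaAC39-1, for subunit d, a score of 47.8 (rank 8229), and VhaPPA1-1, for subunit c'', a score of 45.1 (rank 8899). VhaSFD, the only gene of the regulatory subunit H, had a score of 40.2 (rank 10403) with no promoter summit in replicate 4. The best pooled summits of Vha14-1, Vha26, VhaAC45, Vha100-1, Vha16-5 and VhaM9.7-a also lay within 500 bp of another coding gene's start. That gene was CG30091 for Vha14-1 and its core site. Which gene such a summit belongs to cannot be told here, and the same share for all genes was not counted. Just inside the threshold the lowest Vha gene was Vha68-1 with 85.2, and just outside it were VhaM9.7-a with 72.2 and Vha14-1 with 65.5. The remaining 10 genes had no pooled promoter summit: Vha68-3, Vha36-2, Vha14-2, Vha100-4, Vha16-2, Vha16-3, Vha16-4, VhaPPA1-2, VhaAC39-2 and VhaAC45RP.

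Thresholded summits at other promoters lie within 1000 bp of several uncalled Vha genes. A summit with a score of 195 and rank 829 lies within 1000 bp of the 3′ end of VhaPPA1-1, at the promoter of RpS5b, a ribosomal protein gene. It lies between VhaPPA1-1 and VhaPPA1-2, 1322 bp upstream of the VhaPPA1-2 start. It ranked 923 in replicate 1 and 938 in replicate 4. Summits at the promoter of Cam, the calmodulin gene, follow Vha36-2 with scores of 125 and 107, and 1 at Gmppa, with a score of 96, follows Vha14-1. The Cam summit with a score of 125 had no match in replicate 4. Others follow VhaPPA1-2 (score 105), Vha100-1 (75.7) and Vha36-3 (75.6), the last inside the gene Pdfr and at no other promoter. These were not counted for the Vha genes.

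The TAACNGT core lay within 50 bp of 1 of the 9 best summits (11.1%, Vha100-2), against 13.7% of the 2851 promoter summits. Only the best summit of each Vha gene was counted, while the 2851 are all thresholded promoter summits, weaker ones of the same gene included. Both strands were searched. The 6-base form TAACGG, which overlaps the core in TAACGGT, lay at 1 (11.1%, Vha16-1), against 15.7%. The permuted motif TNACAGT lay at 3 (33.3%: Vha44, Vha36-1 and Vha100-2), against 7.33%, and at Vha100-2 its match shares the bases ACAGT with the core match on the other strand. With A in its open position TNACAGT is itself a form of the core. The E-box CACGTG lay at 1 (11.1%, Vha44), against 1.37%, and TATAAA at 1 (11.1%, Vha68-1), against 15.1%. TCACATGA and TATCGATA lay at none of the 9, against 0.281% and 3.79%. With 9 summits, 1 match moves such a share by 11.1 percentage points. The weaker thresholded summits of Vha13, Vha100-2 and Vha16-1, not counted here, held no core, and that of Vha13 held TNACAGT.

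In the 300 bp promoters, from 250 bp before to 50 bp after the outermost TSS, the core was found in 5 of 33 Vha genes (15.2%: Vha55, Vha14-1, Vha100-2, VhaAC39-1 and VhaAC39-2), against 13.4% of all genes. TAACGG was found in 5 (15.2%), against 8.86%, and TNACAGT in 7 (21.2%), against 15.4%. The M-box TCACATGA, a target of the MITF and TFE family of lysosomal regulators, was found in 4 (12.1%: Vha14-1, VhaPPA1-1, VhaM9.7-b and VhaAC45), against 0.523%. CACGTG was found in 3 (9.09%), against 4.2%, TATCGATA, the DNA replication-related element, in 2 (6.06%), against 9.36%, and TATAAA in 17 (51.5%), against 45.8%. CACGTG and TATCGATA read the same on both strands and were counted once.

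The M-box promoters are shown for VhaPPA1-1 and VhaM9.7-b, where the element lies just downstream of the TSS, with the M-box in capitals as it reads on the gene's strand.
VhaPPA1-1, chr3R:14904009-14904037, minus strand: aaaatgtacgTCATGTGAttgtggattct
VhaM9.7-b, chr3L:21539874-21539902, plus strand: gacatgtccgTCATGTGAtattcgttgct
Of the 4 genes with an M-box, VhaM9.7-b alone had a thresholded promoter summit, and no M-box lay within 50 bp of it.

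Genes that act with the pump were read against the same 23.5% of all genes. Of 6 assembly and regulation genes, 3 had a thresholded promoter summit. These were Rbcn-3A, of the RAVE-like assembly complex, with a score of 110.4 and rank 2482, SkpA with 89.4 and rank 3445, and CG7071 with 209.9 and rank 692. Rbcn-3B, CG5969 and Mitf had none. Among 15 lysosomal genes, 4 had one (26.7%). CtsB, a cathepsin protease, had a score of 171, CtsL1, another cathepsin, 119.7, Ppt1, a thioesterase, 199, and Cln7, a lysosomal membrane protein, 175. Of 9 matched genes for the Rag GTPases, the Ragulator complex that tethers them to the lysosome, and the Rag pathway regulators BHD and mio, 3 had one (33.3%), namely Lamtor3 with 142, RagA-B with 82.5 and Lamtor5 with 75.7. Some of these summits were weaker in 1 or both replicates. RagA-B ranked 7685 in replicate 1 and had no match in replicate 4, and Lamtor5 ranked 5307 in replicate 1 and 4575 in replicate 4. Rbcn-3A ranked 6705 in replicate 1 and SkpA 6051 in replicate 4. The summits of Rbcn-3A, CG7071, CtsB, Ppt1, Lamtor3 and RagA-B also lay within 500 bp of another coding gene's start. ATP6AP2, an accessory subunit whose older name is VhaM8.9, had no thresholded promoter summit.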

How the data were processed

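The data are ChIP-seq peak lists of 2 biological replicates, numbered by the labels. The deposited lists on dm6 were used: a relaxed list per replicate, a pooled list, each of 30000 peaks, and the thresholded list of 4477, which equals the best 4477 of the pooled list. Per the record files deposited beside them, calling used a control alignment, and the irreproducible discovery rate (IDR) procedure then gave the thresholded list. Neither caller nor IDR limit was given in the sources used here. For each peak the authors deposited a score (enrichment), a −log10 q-value, which was not used for ranking, and a summit. Read counts are not part of these lists, so depth is unknown. The 4 lists on dm3 were not used here.

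Summits were assigned to each protein-coding gene with any of 19607 annotated TSSs within 500 bp (Ensembl release 115), and summits within 100 bp were taken as the same between lists. Motifs were searched in the RefSeq Release 6 genome. Python 3.11.15, NumPy 2.4.6, SciPy 1.17.1 and Matplotlib 3.10.9 were used, and the assignment and motif counts were tested on simulated data. All Vha genes were named, each with its best thresholded or pooled promoter summit. The members, the gene lists and the motifs were chosen with earlier results of these data known, so counts are set beside all genes and no list was tested. One listed gene, SLC38A9, was not matched. Alternatives were the TSS window, the TSSs used, the threshold, the overlap rule, the match distance, the motif form and each replicate alone.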

Additional observations from a re-analysis of the deposited data

How the results depend on the processing

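The results are counts and shares, and each was recomputed under the settings that bear on it; 22 of these 28 recomputed values lay within 1.5 times the reported one. The 9 Vha genes with a promoter summit became 4 with the 1000 best peaks and 18 with the 10000 best pooled peaks, and the share of all genes became 6.19% and 37.7%. With a TSS window of 100 bp the share of all genes was 11.7%, the Vha count 6, and the genes that share their summit 3 in place of 6. With each replicate left out in turn, the Vha count was 9 to 11, the share of all genes 22.7 to 23.4%, and the same paralog led in 8 of 8 subunits both times. Vha16-1 enters by 1 bp of the window through its strongest summit, and through its weaker one otherwise. With the 5′-most TSS alone, Vha100-2 left the list and 8 genes remained. No paired analysis was possible because the 2 replicates form 1 group. With no depth, control signal or untagged strain at hand, a missing summit means that none was listed, not that Ovo was absent.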
